A study of Mus musculus with 6 samples.

Results

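Hair follicle matrix cells of mice labelled Ezh1/2 2KO were compared with matrix cells of mice labelled Ezh1/2 WT, gene by gene, on 1 expression array each. The members of the comparison are the 11661 genes with a signal on at least 1 of these 2 arrays, out of 18193 genes that the array platform names by a probe set of their own. Both samples are RNA of skin cells purified by FACS from 14-day-old female and male mice of a mixed C57B6 and CD1 background. The same 2 genotypes were also profiled as outer root sheath (ORS) and basal epidermis, which makes 6 arrays in all. The labels do not say in which cells, or with which alleles or Cre line, the 2 genes were removed, how many animals were pooled, or whether matrix, ORS and epidermis of a genotype shared animals. A single array per group leaves the spread between replicates unknown, so no difference was tested and every statement below describes these 2 arrays.

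Ezh1 and Ezh2 are the alternative enzymes of Polycomb repressive complex 2 (PRC2) and place methyl groups on histone H3. That mark holds developmental regulators and other lineage genes silent, often at promoters rich in CpG dinucleotides, and a companion complex, PRC1, binds it. Matrix cells are the rapidly dividing, transit-amplifying cells of the hair bulb. In the growth phase of the hair cycle they give rise to the hair shaft and to the inner root sheath around it, whereas the ORS surrounds both and connects the bulb with the upper follicle and the epidermis. The title of the series asks what the 2 enzymes do together in hair follicle homeostasis.

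All values are MAS5 signals, a summary of each probe set's brightness on a linear scale. The trimmed mean signal of each array is 500, the target of a common scaling. The median signal of the whole 6-array table, 83.2, served as a floor, and lower signals were set to it. Calls of higher or lower were made where the floored 2KO and WT signals differed by at least 2-fold, and a gene below the floor on both arrays counted as not measured. Where 1 of the signals lay below the floor, the ratio is a lower bound and is written as "at least".

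The targeted genes were lower, and the matrix markers were present on both arrays. Ezh2 gave a signal of 3578 in WT and 1725 in 2KO matrix, 2.07-fold lower. Ezh1 gave 317 and 89.4, 3.54-fold lower. The labels do not give the deleted exons, so the remaining Ezh2 signal cannot be assigned to intact or truncated transcript. Beside it, Ezh2 was 2151 and 378 in WT and 2KO ORS, and 2563 and 432 in epidermis. Krt35, a keratin of the hair shaft cortex made by matrix descendants, was 19670 in WT and 18316 in 2KO matrix, against 36.5 to 892 on the other 4 arrays. Msx2, a homeobox regulator of the matrix, was 6424 and 2307, and Lef1, the WNT effector of the precortex, was 5115 and 2601. On the other 4 arrays Msx2 lay between 175 and 269 and Lef1 between 126 and 803. The matrix label was therefore borne out by these markers in both genotypes. The share of probe sets at or above the floor was 48.5% in WT and 51.8% in 2KO matrix, within the 47.7% to 53.1% of the 6 arrays. The ratio of 3-prime to 5-prime signal of the actin control, a measure of RNA integrity, was 1.49 in WT and 1.87 in 2KO matrix, the highest of the 6 arrays, and that of the Gapdh control was 0.747 and 0.999. Its part in the results was not tested.

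Far more genes were called higher than lower in 2KO matrix. Of the 11661 measured genes, 1053 (9.03%, or 5.79% of all 18193) were at least 2-fold higher, 189 (1.62%, or 1.04% of all 18193) were at least 2-fold lower, and 10419 (89.3%) lay within 2-fold. Of all calls, 84.8% were higher, and the median log2 ratio of all measured genes was 0.03. The excess grew with the size of the difference, with 216 genes at least 4-fold higher against 14 lower, and 40 genes at least 8-fold higher against 1 lower. Near the threshold, 205 called genes had a log2 size of 1 to 1.1, and 277 genes had one of 0.9 to 1 and were not called. Of the higher genes, 324 (30.8%) were below the floor in WT, where the floor allows no other direction. Among the 10444 genes above the floor in WT, 729 (6.98%) were higher and 189 (1.81%) lower. Those less than 2-fold above the floor in WT could not be called lower.

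The split between higher and lower rests on the scaling, because values scaled to one total show only differences relative to that total. When both arrays were scaled to a common median signal instead, the median log2 ratio of all genes moved to -0.24, and 55.4% of calls were higher, with 712 genes higher and 574 lower. When the arrays were scaled to the 18 spiked-in hybridisation control probe sets, which were 1.55-fold brighter on the 2KO array, the median moved to -0.60 and 16.3% of calls were higher, with 447 higher and 2297 lower. Both scalings divide the 2KO signals by a common factor, so by construction they could only add lower calls and remove higher ones. Of the medians of 51 gene lists described below, 12 changed sign under the first of these scalings and 18 under the other, and these medians were at most 0.27 and 0.60 in size. Ratios are best read against the all-gene median of 0.03, and list counts against the all-gene shares of 9.03% higher and 1.62% lower.

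The share of higher genes fell with the WT level, and that of lower genes did not. Among genes with a WT signal between the floor and 250, 17.6% were higher and 1.49% lower. In this range, genes less than 2-fold above the floor could not be called lower, so that share is capped by construction. The ranges also use the WT signal alone, so error in it tilts weak genes toward higher calls. For signals of 1000 to 2000 the shares were 2.72% and 1.86%. For signals of 4000 and above they were 1.31% and 1.48%. The higher calls thus lay mostly among genes that were weak or silent in WT matrix.

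**Figure D1:**
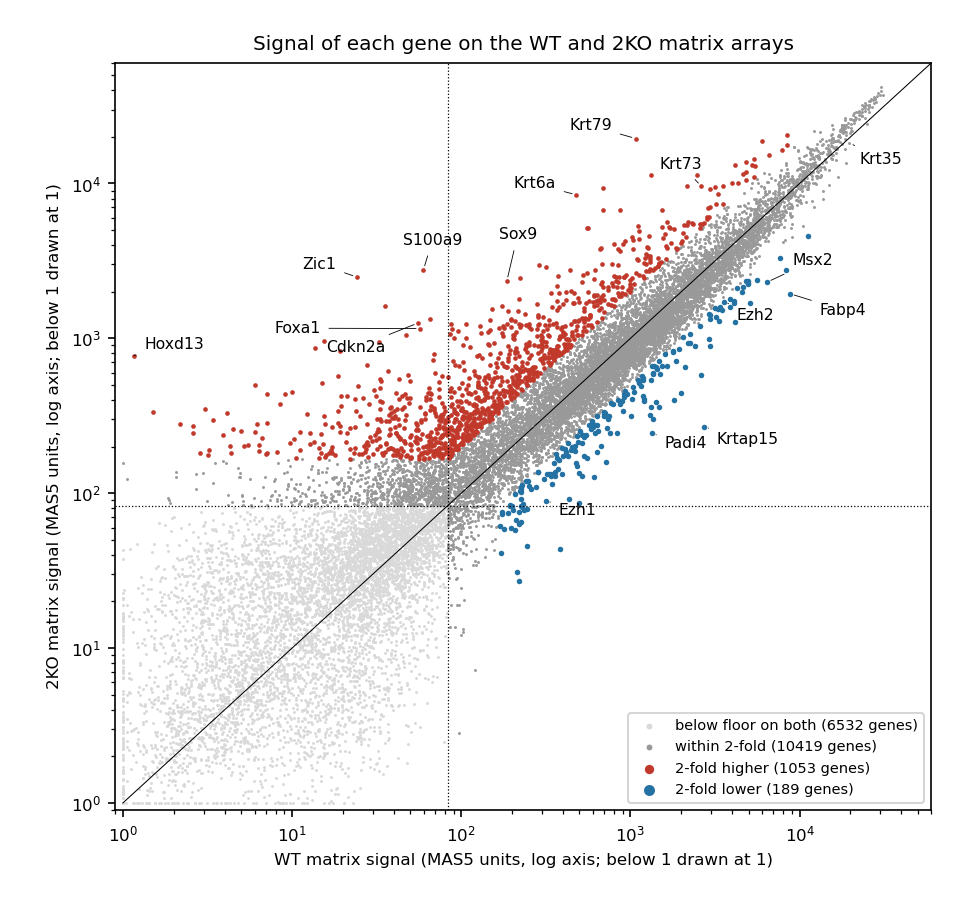
Signal of each of 18193 genes on the WT matrix array (x axis) and the 2KO matrix array (y axis), in MAS5 units on log axes, 1 array per genotype, with signals below 1 drawn at 1. Dotted lines mark the floor of 83.2 and the solid line equal signals. The 1053 genes called higher (red) crowd to the left, at low WT signal, with Zic1 and Hoxd13 below the floor in WT, and the 189 genes called lower (blue) run along the whole range.

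The promoters of 6 genes are shown as examples from both ends of the comparison, chosen after their values were seen. Zic1, Hoxd13 and Foxa1 encode transcription factors of other lineages and were below the floor in WT matrix. S100a9 and Krt79, of inflamed epidermis and of the upper follicle, were among the 4 genes with the largest ratios, and Krtap15, a keratin-associated protein of the hair shaft, had the lowest ratio. Each sequence is the 250 bases upstream of the RefSeq start in GRCm38.p6, on the gene's strand, in lower case with each CpG dinucleotide (the letters CG, which read the same on both strands) in capitals.

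Zic1: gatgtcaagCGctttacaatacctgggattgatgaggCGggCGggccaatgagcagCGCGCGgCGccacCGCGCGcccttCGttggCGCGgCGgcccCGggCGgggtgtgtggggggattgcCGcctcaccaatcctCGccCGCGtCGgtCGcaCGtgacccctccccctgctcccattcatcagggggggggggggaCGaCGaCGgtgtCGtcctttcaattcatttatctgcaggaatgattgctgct
Hoxd13: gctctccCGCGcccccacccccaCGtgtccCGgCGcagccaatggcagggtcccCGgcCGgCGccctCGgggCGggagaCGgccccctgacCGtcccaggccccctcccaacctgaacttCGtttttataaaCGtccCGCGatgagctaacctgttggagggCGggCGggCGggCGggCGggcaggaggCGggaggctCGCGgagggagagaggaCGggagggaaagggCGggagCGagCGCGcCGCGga
Foxa1: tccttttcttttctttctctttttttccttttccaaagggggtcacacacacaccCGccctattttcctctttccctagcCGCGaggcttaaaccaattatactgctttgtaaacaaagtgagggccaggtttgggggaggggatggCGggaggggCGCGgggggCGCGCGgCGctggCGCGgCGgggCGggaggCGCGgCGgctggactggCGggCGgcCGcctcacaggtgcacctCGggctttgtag
S100a9: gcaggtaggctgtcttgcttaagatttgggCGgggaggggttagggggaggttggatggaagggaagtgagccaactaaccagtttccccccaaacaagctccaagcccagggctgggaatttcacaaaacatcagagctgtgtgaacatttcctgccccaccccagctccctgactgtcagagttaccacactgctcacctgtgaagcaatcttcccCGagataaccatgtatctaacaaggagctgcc
Krt79: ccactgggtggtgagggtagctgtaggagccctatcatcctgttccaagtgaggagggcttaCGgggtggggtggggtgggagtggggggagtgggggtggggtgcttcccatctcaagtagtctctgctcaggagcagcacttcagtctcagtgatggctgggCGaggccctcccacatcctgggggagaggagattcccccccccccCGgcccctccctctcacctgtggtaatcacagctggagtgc
Krtap15: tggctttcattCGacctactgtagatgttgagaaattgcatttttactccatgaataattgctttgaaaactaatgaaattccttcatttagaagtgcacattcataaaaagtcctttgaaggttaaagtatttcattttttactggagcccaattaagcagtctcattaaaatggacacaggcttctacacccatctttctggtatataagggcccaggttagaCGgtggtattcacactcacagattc

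The Zic1 sequence lies at chr9:91365769-91366018 on the minus strand and holds 27 CpG, an observed over expected ratio of 0.99. The Hoxd13 sequence, at chr2:74667975-74668224 on the plus strand, holds 31 (ratio 0.90). The Foxa1 sequence, at chr12:57546112-57546361 on the minus strand, holds 21 (ratio 0.89). By contrast, the S100a9 sequence at chr3:90695722-90695971 (minus) holds 2 (ratio 0.11). The Krt79 sequence at chr15:101940325-101940574 (minus) holds 3 (ratio 0.12), and the Krtap15 sequence at chr16:88828759-88829008 (plus) holds 2 (ratio 0.24). Over the 14367 genes with a promoter in the table the median was 13 CpG and a ratio of 0.62, and 52.3% had a ratio of at least 0.6. A comparison of higher and lower genes as sets is void: 79.0% of all genes and 76.0% of the higher genes had a sequence, below the 80% set for it. The CpG-rich examples do not stand for the higher genes. Among genes with a sequence and above the floor in WT matrix, 47.5% of the higher genes had a ratio of at least 0.6. The share was 72.7% of those within 2-fold and 51.7% of the lower. Below the floor in WT matrix it was 41.0% of the higher genes and 24.9% of the others. These shares are description only. The arrays hold no chromatin measurement, so these sequences describe the genes and say nothing of where PRC2 was bound.

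Of the PRC2 subunits other than the targets, none was called lower. The list of 12 had Ezh1 and Ezh2 lower and Epop, an accessory subunit, higher, from 41.2 to 177 (at least 2.12-fold). The core subunit Suz12 was 5138 in WT and 3911 in 2KO matrix, and the histone-binding subunits Rbbp4 and Rbbp7 were 12427 and 11176, and 13838 and 15895. All 17 PRC1 subunits were measured and lay within 2-fold, among them Bmi1 at 2574 and 3557. The 2 demethylases of the same histone residue also lay within 2-fold, Kdm6a at 1846 and 1668 and Kdm6b at 2962 and 4153.

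The Cdkn2a locus, which encodes the cell cycle inhibitor p16Ink4a and the p53 activator p19Arf and is a textbook Polycomb target, stood out among 7 cell cycle inhibitors. Cdkn2a was 55.5 in WT and 1256 in 2KO matrix, at least 15.1-fold higher. It was 26.4 and 2840 in ORS and 44.8 and 2385 in epidermis, so all 3 WT arrays lay below the floor and all 3 2KO arrays above it. The neighbouring inhibitor gene Cdkn2b was already well above the floor in WT matrix, at 1163, and reached 2026, a 1.74-fold difference that was not called. Its WT signals in ORS and epidermis were 227 and 304, and its 2KO signals there were 1950 and 1562. Cdkn1a, encoding p21, was called higher, at 6555 and 15380 (2.35-fold). Cdkn1b, encoding p27, was 3002 and 2292, and Cdkn2c was 1449 and 1193.

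Some developmental regulators of other lineages were called higher in 2KO matrix, and most were not. Of 105 such genes on the array, 53 were below the floor on both matrix arrays, 32 were measured and within 2-fold, 20 were higher and 0 lower, beside 5.79% higher among all genes on the array (9.03% of those measured). As 16 of these 20 had a WT signal under the floor, they could not have been called lower. The other 4 were among 11 listed genes above the floor in WT, beside 6.98% of all such genes. Zic1, a zinc finger factor of the dorsal neural tube and somites, went from 24.1 to 2490 (at least 29.9-fold), and another of its probe sets from 10.1 to 377. Foxa1, a pioneer factor of endoderm and glands, went from 57.2 to 1157 (at least 13.9-fold). Foxd1, of kidney stroma and forebrain, went from 15.5 to 964 (at least 11.6-fold). Lower in level were Tbx3 (28.5 and 374), Zic5 (3.06 and 348), the pluripotency and neural factor Sox2 (12.3 and 324) and the motor neuron factor Isl1 (5.01 and 253). Irx5 was the clearest member already expressed in WT, at 190 and 893 (4.7-fold), while its relative Irx2 was 2783 and 3370.

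HOX genes were called in both directions. HOX genes set position along the body axis, with higher numbers expressed toward the tail and the limb tips. Of 33 on the array, 10 were below the floor on both matrix arrays, 9 were higher, 5 lower and 9 within 2-fold. Of those measured, 39.1% were higher and 21.7% lower, beside 9.03% and 1.62% of all genes. Of the 14 above the floor in WT, 1 was higher and 5 were lower. The higher genes were Hoxa9, Hoxa10, Hoxa11, Hoxb13, Hoxc9, Hoxc10, Hoxd9, Hoxd10 and Hoxd13, all of paralogue groups 9 to 13. Hoxd13 went from 1.16 to 774 (at least 9.3-fold) and Hoxd10 from 13.7 to 863 (at least 10.4-fold). Another Hoxd13 probe set stayed below the floor on both arrays, at 3.26 and 22. Hoxa9, the sole higher member above the floor in WT, went from 220 to 1244 (5.65-fold).

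The lower HOX genes were Hoxa7, Hoxb2, Hoxb3, Hoxb4 and Hoxb6, all of paralogue groups 2 to 7 and 4 of them in the HoxB cluster. Hoxb6 was 1356 in WT and 300 in 2KO matrix (4.51-fold lower), Hoxb2 was 1495 and 586, and Hoxb3 was 1594 and 789. Hoxc13, the group 13 gene that directs hair keratin expression and was by far the brightest HOX gene in WT matrix, was 5489 and 3286, within 2-fold. The grouping by position was seen after the values were known and was not tested.

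Many imprinted genes were called higher. These genes are expressed from one parental copy, and several promote or restrain growth in the embryo. Of 31 on the array, 8 were below the floor on both matrix arrays, 11 were higher, 0 lower and 12 within 2-fold. The higher genes were 47.8% of those measured, beside 9.03% of all genes. As 1.62% of all genes were lower, 0 lower in a list of this size says little. Above the floor in WT were 14, 6 of them higher, beside 6.98% of all such genes. Plagl1, a zinc finger factor, was 693 in WT and 6738 in 2KO matrix (9.72-fold), and Igf2, a growth factor, 179 and 1171 (6.53-fold). The non-coding Meg3 was 131 and 1087 (8.33-fold), and its 6 other measured probe sets were all brighter in 2KO. Zdbf2 went from 32.6 to 948 (at least 11.4-fold) and Grb10 from 74.0 to 474 (at least 5.69-fold). The brightest member, Dcn, was 11210 and 12211, and Gnas was 7677 and 11376.

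**Figure D2:**
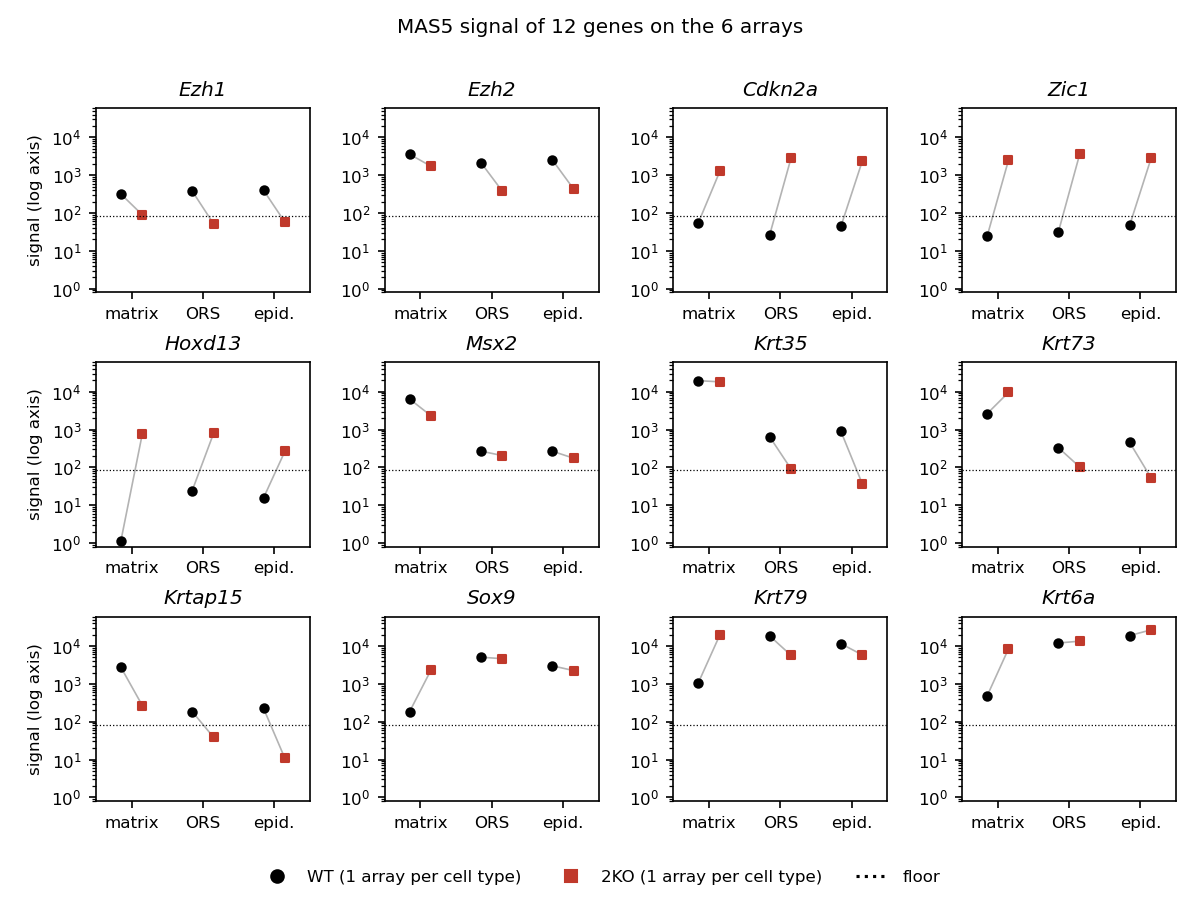
MAS5 signal (log axis) of 12 genes in matrix, ORS and basal epidermis (epid.), with WT as black circles and 2KO as red squares, 1 array each, and the floor as a dotted line. Cdkn2a and Zic1 lie below the floor on all 3 WT arrays and above it on all 3 2KO arrays, whereas Krt79 is higher in 2KO matrix and lower in 2KO ORS.

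Matrix transcription factors were retained, with several at a lower level. Of 25, 4 were lower (Msx2, Dlx3, Msx1 and Foxq1), 0 higher and 21 within 2-fold, with a median log2 ratio of -0.19. In sorted bulk samples, fewer cells of a type and less RNA per cell cannot be told apart, here and for every cell type list below. Msx2 was 2.78-fold lower. Dlx3, which acts upstream of hair keratin genes, was 2951 in WT and 1337 in 2KO matrix (2.21-fold lower), and Msx1 was 4277 and 2111 (2.03-fold lower). Lef1 lay just short of the threshold at 1.97-fold lower, and its other probe set was 609 and 256. Foxn1, the factor lost in nude mice, was 671 and 637, Ovol1 was 4997 and 4393, and Trp63, the master regulator of stratified epithelia, was 6411 and 5325.

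Most hair shaft keratins lay within 2-fold. Of 12 genes for keratins of the shaft, 1 was below the floor on both arrays, 1 was higher (Krt84, from 72.1 to 181), 1 lower (Krt33b, from 189 to 74.3) and 9 within 2-fold, with a median of -0.10. Both called members were dim. The bright members barely differed: Krt35 was 1.07-fold lower, Krt36 was 2001 and 1902, and Krt33a was 2169 and 1673.

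Keratin-associated proteins, which crosslink the keratin filaments of the shaft, were uneven. Of 38 on the array, 26 were below the floor on both, 5 were lower and 2 higher. Krtap15 was 2739 in WT and 268 in 2KO matrix, 10.2-fold lower and the lowest ratio of all measured genes. Krtap7-1 was 2629 and 581 (4.52-fold lower), and Krtap8-1, the brightest, was 11200 and 4595 (2.44-fold lower). In the same fibre, Krtap11-1 was 2716 and 2713, and Krtap13-1 was 467 and 1300 (2.78-fold higher). Members of this family have similar sequences, so probe sets may pick up relatives.

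Several genes of the inner root sheath were lower. Of 17, 1 was below the floor on both arrays, 5 were lower, 1 was higher and 10 within 2-fold. Of the 16 measured, 13 had a log2 ratio below 0, and the median of -0.76 was the lowest among the lists with more than 10 measured members. Tchh, encoding trichohyalin, the granule protein of the sheath, was 4985 in WT and 2273 in 2KO matrix (2.19-fold lower). Padi3, a peptidylarginine deiminase that modifies trichohyalin, was 4144 and 1282 (3.23-fold lower). Tgm3, the transglutaminase that crosslinks it, was 1153 and 493 (2.34-fold lower). Krt27 was 3193 and 1364 (2.34-fold lower), and Tchhl1 went from 215 to below the floor (at least 2.59-fold lower). Krt71, mutated in curly-coated animals, lay just within 2-fold at 4429 and 2277, and the brightest sheath keratins Krt25 and Krt28 were 13303 and 11127, and 10128 and 7483.

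Krt73, a keratin of the inner root sheath cuticle, went the other way. It was 2625 in WT and 9619 in 2KO matrix, 3.66-fold higher, while on the ORS arrays it was 332 and 102 and on the epidermal arrays 457 and 52.9. A further deiminase outside the sheath list, Padi4, was 1341 and 243, 5.51-fold lower, the lowest ratio after Krtap15.

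Several keratins of other skin layers were higher. Over the whole keratin family of 48 genes, 41 were measured in matrix, 15 higher and 3 lower. Krt6a, a keratin of the companion layer and of stressed epidermis, was 478 in WT and 8460 in 2KO matrix (17.7-fold), and its other 2 probe sets were also higher, by log2 ratios of 3.47 and 3.94. Its paralogue Krt6b was 95.7 and 1121 (11.7-fold), Krt16 was 1119 and 4944 (4.42-fold) and Krt17 was 5992 and 18891 (3.15-fold). Krt75, the companion layer keratin proper, was 7331 and 7152. WT ORS and epidermis held Krt6a at 12078 and 19018 and Krt17 at 18575 and 15856, so that the 2KO matrix lay between WT matrix and the other cell types for Krt6a and at their level for Krt17. The simple epithelial keratins Krt8 and Krt18 were also higher, from 31.2 to 425 (at least 5.11-fold) and from 188 to 710 (3.78-fold).

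Many genes of the ORS and its stem cells were higher in matrix of 2KO mice. Of 32, all were measured, 16 were higher and 0 lower, with a median log2 ratio of 0.98 beside 0.03 for all genes. Sox9, required for the ORS and its stem cells, was 186 in WT and 2345 in 2KO matrix (12.6-fold), and 5089 and 4650 in ORS. Nfatc1, which holds bulge stem cells in quiescence, was 106 and 999 (9.44-fold), Npnt, a matrix protein of the bulge niche, 167 and 1162 (6.95-fold), and Tnc, encoding tenascin C, 237 and 1430 (6.02-fold). Tcf7l1, a repressor of WNT targets in stem cells, was 304 and 1118 (3.68-fold). Not all members took part: the bulge marker Cd34 was 125 and 128, against 1036 in WT ORS, and Krt15 was 2994 and 5200, against 22416. Lhx2 lay just within 2-fold at 2644 and 5112.

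The upper follicle and sebaceous duct gave larger differences still. Of 14 genes, 13 were measured, 9 (69.2%, beside 9.03% of all genes) were higher and 0 lower, with a median of 1.66. Above the floor in WT were 9, 8 of them higher, beside 6.98% of all such genes. Krt79, a keratin of the infundibulum and duct, was 1077 in WT and 19517 in 2KO matrix (18.1-fold), the largest gain in signal units of all genes. Sostdc1, a secreted antagonist of BMP and WNT, was 186 and 1232 (6.63-fold), the protease inhibitor Cst6 was 797 and 4097 (5.14-fold) and the defensin Defb6 was 524 and 2547 (4.86-fold). These 4 genes were all lower in 2KO ORS than in WT ORS: Krt79 was 18647 and 5691 there, Sostdc1 9040 and 3017, Cst6 5190 and 583, and Defb6 13578 and 944. Teddm3 went from 58.2 to 289 (at least 3.47-fold) in matrix.

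Over the 9478 genes above the floor on all 6 arrays, Pearson's r of log2 signals described the arrays as a whole. The 2KO matrix correlated with WT matrix at 0.937, with 2KO ORS at 0.920 and with WT ORS at 0.891, whereas WT matrix correlated with WT ORS at 0.836. Epidermis gave the same order, so it was not particular to ORS. The 2KO matrix correlated with 2KO epidermis at 0.916 and with WT epidermis at 0.880, and WT matrix with WT epidermis at 0.821. The points are genes that share arrays and probe chemistry, so these coefficients carry no p-value.

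Basal and early differentiation genes of the epidermis pointed the same way. Of 13 basal layer genes, 5 were higher and 0 lower, with a median of 0.60 that becomes -0.05 under scaling to the hybridisation controls. Krt14 was 4805 in WT and 13804 in 2KO matrix (2.87-fold), Krt5 8423 and 17690 (2.1-fold) and Lamb3, a laminin chain, 209 and 666 (3.18-fold). Of 19 early differentiation genes, 9 were higher and 0 lower, with a median of 0.96. Krtdap, secreted by differentiating keratinocytes, was 557 and 5182 (9.31-fold), Krt80 177 and 1029 (5.82-fold), and Calm4 899 and 4078 (4.54-fold). Krt77, a keratin of the epidermis and sweat ducts, was 221 and 608 in matrix but 1937 and 68.8 in ORS and 7616 and 112 in epidermis.

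Late differentiation genes were called in both directions. Of 28 cornified envelope genes, 13 were below the floor on both matrix arrays, 3 were higher and 1 lower, with a median of 0.13 that has no settled sign under the other scalings. The higher members were the small proline-rich genes Sprr1b (124 and 772, 6.25-fold), Sprr1a (777 and 3004, 3.87-fold) and Sprr2h (32.9 and 203, at least 2.44-fold). The envelope proteins of terminal layers were not higher: Lor was 1077 and 565, Ivl 627 and 353, and Flg went from 218 to below the floor (at least 2.63-fold lower).

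**Figure D3:**
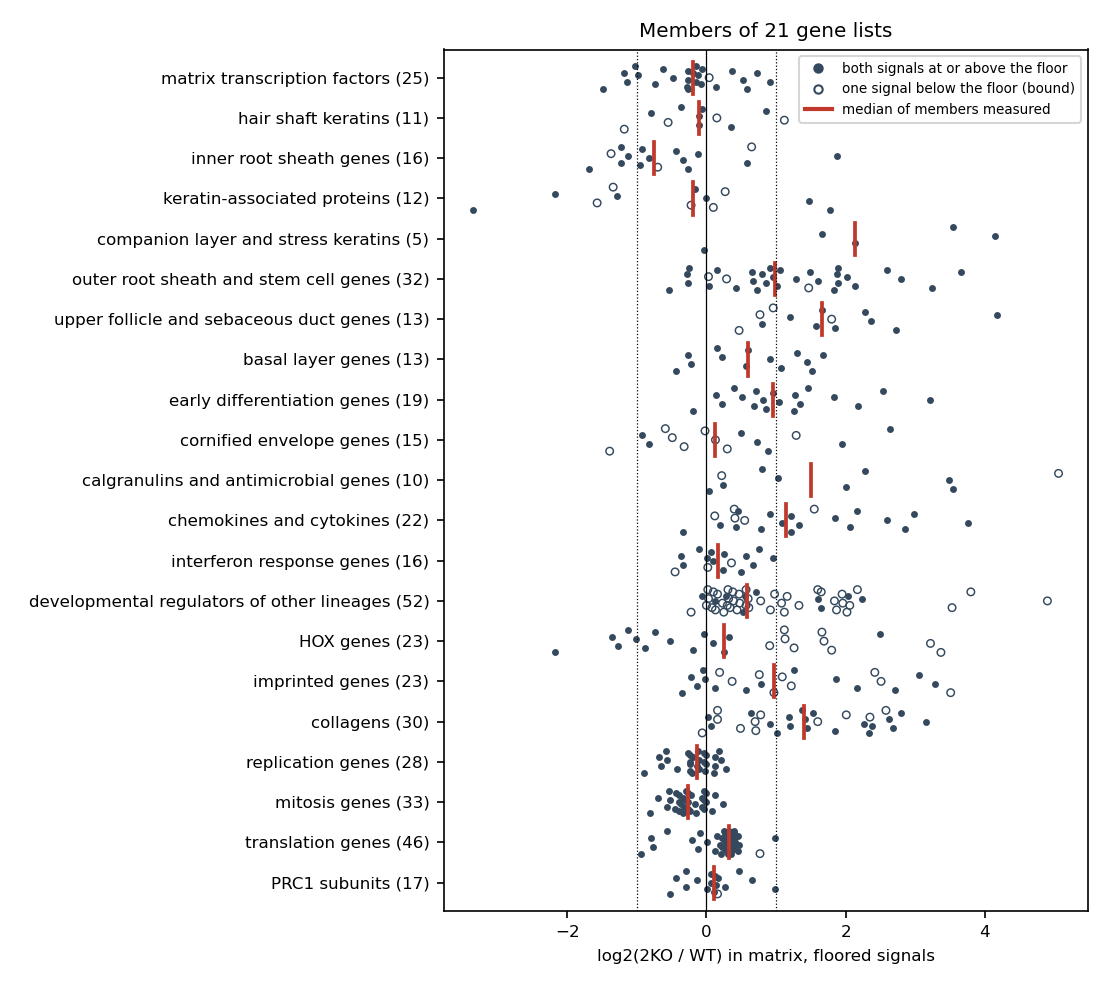
Log2 ratio of 2KO over WT matrix (floored signals) of every measured member of 21 gene lists, with the number measured in brackets. Filled points have both signals at or above the floor, open points are bounds, red bars are medians and dotted lines mark 2-fold. The stress keratin, upper follicle, ORS, calgranulin, chemokine and collagen lists lie to the right, the inner root sheath list to the left, and the replication, mitosis and translation lists close around 0.

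Alarm and antimicrobial genes held the largest single ratio. S100a9, 1 subunit of calprotectin, which keratinocytes and myeloid cells make in inflammation, was 59.8 in WT and 2775 in 2KO matrix (at least 33.4-fold). Its partner S100a8 was 221 and 2459 (11.1-fold). In epidermis the same pair was bright already in WT, at 1966 and 2340, and reached 5413 and 6506 in 2KO, and in ORS S100a9 was 65.5 and 265. Of the 15 genes listed, 5 were below the floor on both matrix arrays, 6 were higher and 0 lower. Lcn2, lipocalin of innate defence, was 126 and 503 (3.99-fold) and Wfdc18, a secreted protease inhibitor of the WAP family, 107 and 1241 (11.6-fold), while the related Slpi was 2120 and 2179.

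Many chemokine and cytokine genes were higher. Of 28 chemokine and cytokine genes, 6 were below the floor on both arrays, 12 were higher and 0 lower, with a median of 1.15. The higher ones were 54.5% of those measured, beside 9.03% of all genes. Above the floor in WT were 17, 11 of them higher, beside 6.98% of all such genes. Cxcl2, which attracts neutrophils, was 688 in WT and 9319 in 2KO matrix (13.5-fold), and Tnf was 447 and 2011 (4.5-fold). Cxcl2 was also higher in ORS, at 1351 and 13423 (9.94-fold), and in epidermis, at 1585 and 5064 (3.19-fold). Il1b was 197 and 1182 (6.0-fold), beside 224 and 234 in ORS. The monocyte attractant Ccl2 was 89.7 and 711 (7.92-fold), against 2495 and 2589 in ORS. Of 23 interferon response genes, 16 were measured and all lay within 2-fold, with B2m at 9870 and 14685 and H2-D1 at 8500 and 8563. As 9.03% of all genes were higher and 1.62% lower, 0 calls in a list of this size say little. Of 21 AP-1 and immediate early genes, 4 were higher and 0 lower: Fosl1 was 1809 and 5072 (2.8-fold) and Dusp1 5410 and 14317 (2.65-fold), while Egr1, the brightest, was 19852 and 26174.

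Immune cell markers were higher too on the 2KO matrix array. Of 19 such markers, 4 were below the floor on both arrays, 10 were higher and 0 lower. The higher ones were 66.7% of those measured, beside 9.03% of all genes. Some markers counted as measured only through the 2KO array. Above the floor in WT were 9, 5 of them higher, beside 6.98% of all such genes. The summed signal of the markers was 2211 in WT and 8143 in 2KO matrix, against 6313 to 11337 on the other arrays. Ptprc, the pan-leukocyte antigen CD45, went from 21 to 243 (at least 2.93-fold) and was the highest of the 6 arrays, next to WT epidermis at 223. Tyrobp, of myeloid and natural killer cells, went from 41.8 to 350 (at least 4.2-fold), and H2-Eb1, a class II antigen-presenting chain, was 315 and 2873 (9.11-fold). H2-Eb1 was also higher in ORS, at 1148 and 3517. Other class II genes differed less in matrix: H2-Aa was 302 and 1016 (3.37-fold) and H2-Ab1 360 and 443, within 2-fold. The immune marker Cd74 was 229 and 359, also within 2-fold. Cd207 of Langerhans cells was 54.1 and 106, and the T cell genes Cd3e, Cd3g and Cd3d were below the floor on both. Their part in the cytokine result was not tested.

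Skeletal muscle genes were seen mainly on the 2KO matrix array. Of 19 markers, 5 were below the floor on both matrix arrays, 7 were higher and 0 lower. Among all genes on the array 5.79% were higher (9.03% of those measured). Only 3 markers were above the floor in WT, 2 of them higher, beside 6.98% of all such genes. The other measured markers counted as measured only through the 2KO array and could not be called lower. The summed signal of the 19 markers was 4694 in 2KO matrix and 838 to 1159 on the other 5 arrays. Acta1, skeletal actin, was 1153 against 77.1 to 151, Myl1, a fast myosin light chain, was 834 against 19.2 to 53, and Tnnc2, fast troponin C, was 437 against 7.15 to 55.5. Ttn, titin, was below the floor on both matrix arrays. Ckm, muscle creatine kinase, was below it on both by the probe set that stood for it (61.9 and 18.6), whereas its other probe set went from 13.5 in WT to 143 in 2KO matrix. Car3, an enzyme abundant in muscle and fat and at least 19.4-fold higher in matrix (35.5 and 1614), followed this pattern, with 38.8 to 147 on the other arrays, whereas the adipocyte gene Adipoq was below the floor on both. In an alternative chosen after seeing the data, every listed marker of another cell type was left out, and 1008 genes were higher and 184 lower. By construction this removes only the calls of the listed genes themselves. Any RNA that such cells add to other genes stays in, so the counts do not measure their part.

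Collagens and fibroblast markers were higher as a group. Of 42 collagen genes, 30 were measured, 19 (63.3%, beside 9.03% of all genes) were higher and 0 lower, with a median of 1.40. Above the floor in WT were 20, 15 of them higher, beside 6.98% of all such genes. Col7a1, which forms the fibrils that anchor the epidermis, was 147 in WT and 1315 in 2KO matrix (8.94-fold), and Col14a1 102 and 707 (6.96-fold). The major fibrillar chains were present at high signal in both, Col1a2 at 3221 and 7378 and Col3a1 at 3508 and 9587. Of 20 fibroblast markers, 19 were measured, 17 (89.5%) were higher and 0 lower. Their summed signal was 24596 in WT and 50848 in 2KO matrix, and 30615 to 56535 on the other 4 arrays. Vim was 1131 and 4406 (3.89-fold), Dcn was not called, and Pdgfra was below the floor on both arrays. Of 17 dermal papilla markers, 11 were measured and 3 were higher, Alx4 and Sox18 were below the floor, and the summed signal was 13649 and 13209. Among its brightest members were Lef1 (5115 and 2601), used above as a matrix marker, and Bmp4 (2085 and 1614). The sum therefore does not measure dermal papilla content. The part of fibroblasts and dermal papilla cells in the collagen result was not tested.

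**Figure D4:**
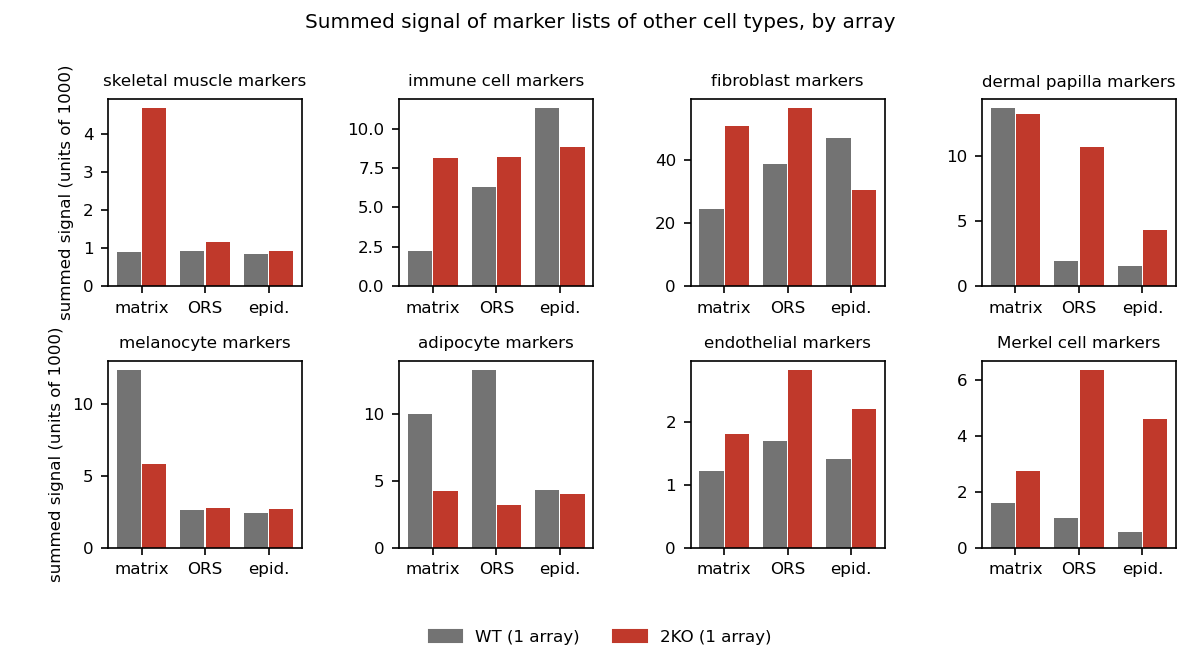
Summed MAS5 signal (in units of 1000) of 8 marker lists of other cell types on the 6 arrays, grey for WT and red for 2KO, 1 array each, with an axis from 0 in each panel. The muscle sum of 4694 in 2KO matrix stands alone, and the immune and fibroblast sums are lowest in WT matrix. The melanocyte and adipocyte sums are lower in 2KO than in WT matrix, the melanocyte sum through Gpnmb and Dct and the adipocyte sum mainly through Fabp4. The dermal papilla sum includes Lef1, also a matrix marker.

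Some melanocyte and fat genes were lower. Of 13 melanocyte markers, 12 were measured, 2 were lower and 0 higher, and the median was 0.00, with 6 above 0 and 6 below. The summed signal was 12395 in WT and 5821 in 2KO matrix, and without the 2 lower genes, Gpnmb and Dct, it was 1857 and 2123. Gpnmb, a glycoprotein of melanosomes and also of macrophages, was 8293 and 2762 (3.0-fold lower), and Dct, an enzyme of melanin synthesis, was 2245 and 936 (2.4-fold lower). Tyr, the rate-limiting enzyme of that pathway, was 95.6 and 76.0, and Mlana 153 and 198. Fabp4, a fatty acid carrier of adipocytes, was 8816 and 1939 (4.55-fold lower), the largest loss in signal units of all genes, and 3 further probe sets were also lower. Lpl, lipoprotein lipase, was 759 and 245 (3.1-fold lower). Of 11 adipocyte markers, 4 were measured: these 2 were lower, Car3 was higher, and Cidea lay within 2-fold at 208 and 191. Their summed signal was 9975 in WT and 4218 in 2KO matrix, a drop that came mainly from Fabp4. Of 12 Merkel cell markers, 6 were measured and 4 were higher, these being Sox2, Isl1, Krt8 and Krt18, while Krt20 and Atoh1 were below the floor on both arrays.

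Each of 5 signalling pathways listed held at least 1 call, which says little beside 9.03% higher and 1.62% lower among all genes. The share of higher genes was above 9.03% in the WNT, hedgehog, BMP and TGF-beta, and EGF and FGF lists. In the Notch list it was 0. These differences were not tested. Of 40 WNT genes, 32 were measured, 8 were higher and 1 lower, with a median of 0.03, 18 above 0 and 14 below. Secreted antagonists were among the higher: Wif1 was 1239 in WT and 3486 in 2KO matrix (2.81-fold) and Sfrp2 went from 61.6 to 402 (at least 4.83-fold). Ctnnb1, encoding beta-catenin, was 18485 and 25588. Of 13 hedgehog genes, 3 were higher and 0 lower, and 12 had a log2 ratio above 0, with a median of 0.47 that becomes 0.00 under scaling to the hybridisation controls. The ligand Shh, made on one side of the matrix, was 1112 and 3185 (2.86-fold) and the co-receptor Gas1 349 and 1242 (3.56-fold), while the receptor and target Ptch1 was 4601 and 4615.

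Among 36 BMP and TGF-beta genes, 34 were measured, 6 were higher and 0 lower. The higher members were secreted ligands, inhibitors and a receptor: Fst, an activin inhibitor, was 1028 in WT and 4542 in 2KO matrix (4.42-fold), Tgfb3 went from 49.9 to 411 (at least 4.94-fold) and Tgfbr2 was 515 and 1349 (2.62-fold). The BMP target Id1 was 14862 and 9825, and Id3 was 13145 and 11035. In the Notch pathway 17 of 20 genes were measured and 1 was called, Hes1, a target of the pathway, which was 3871 and 1586 (2.44-fold lower). The receptor Notch1 was 8071 and 10927. The ligand Jag1 was 12633 and 10772 by its brightest probe set. Its other probe sets were 4485 and 1912, and 769 and 347, both more than 2-fold lower. Of 22 EGF and FGF genes, 19 were measured, 6 (31.6%, beside 9.03% of all genes) were higher and 1 lower, and 15 had a log2 ratio above 0. Their median of 0.72 becomes 0.10 under scaling to the hybridisation controls. Fgfr1 was 370 and 1733 (4.68-fold), the EGF receptor ligand Ereg 211 and 862 (4.08-fold), and Fgf5, which ends hair growth, 412 and 192 (2.15-fold lower).

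Replication and mitosis genes lay within 2-fold, most of them slightly below 0. All 28 replication genes and all 33 mitosis genes were measured, and 0 of either were called. A log2 ratio below 0 was found for 22 and 30 of them, with medians of -0.13 and -0.27. Pcna, the polymerase clamp, was 15544 in WT and 14292 in 2KO matrix, the helicase subunit Mcm7 was 9293 and 8612, and the proliferation marker Mki67 was 9534 and 7807. Ccnd1, encoding cyclin D1, was the 1 higher of 16 G1 genes, at 5343 and 11080 (2.07-fold), and Ccnd2 was 12190 and 16350. Of 22 p53 target and apoptosis genes, 21 were measured, 5 were higher and 0 lower. Bcl2l11, encoding the death inducer Bim, was 871 and 3656 (4.2-fold), Ccng1 1646 and 5613 (3.41-fold), and Perp, the brightest, 17814 and 23738.

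Ribosomal protein and translation genes lay slightly above 0, and genes of ribosome assembly slightly below. Of 48 translation genes, 46 were measured and 0 were called, and 39 had a log2 ratio above 0. Their median of 0.32 becomes 0.04 under scaling to a common median, 0.00 under quantile normalization and -0.34 under scaling to the hybridisation controls. Rps29 was 30453 in WT and 42038 in 2KO matrix. A family put together after the values were seen, 50 nucleolar and ribosome assembly genes, had 48 measured, 6 lower and 1 higher, and 42 with a log2 ratio below 0, with a median of -0.39 in matrix, -0.21 in ORS and 0.17 in epidermis. Nop58, a core protein of the particles that modify ribosomal RNA, was 7699 and 3314 (2.32-fold lower). The other lower members were Exosc2, Exosc3, Exosc4, Pno1 and Rsl1d1. Since the family was chosen for its values, the count supports nothing further.

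Solute carriers were called about as often as genes in general. Of 309, 187 were measured, 19 (10.2%) were higher and 3 (1.60%) lower, beside 9.03% and 1.62% of all genes. Slc7a11, the cystine importer that also sets pigment type, went from 385 to below the floor (at least 4.63-fold lower), and its other probe set was 176 and 84.6. Slc16a1, a lactate carrier, was 206 and 1050 (5.11-fold), and the glucose carrier Slc2a3 went from 33.3 to 476 (at least 5.72-fold). Of 18 cholesterol and fatty acid synthesis genes, 0 were called, with Hmgcs1 at 14845 and 12242 by its brightest probe set. Dimmer Hmgcs1 probe sets at 4403 and 1871, and at 1393 and 384, were more than 2-fold lower, and its remaining ones lay within 2-fold. In the retinoid list of 20 genes, 18 were measured, 5 (27.8%) higher and 2 (11.1%) lower. Above the floor in WT were 13, with 3 higher and 2 lower. Crabp2, a retinoic acid carrier, was 86.9 and 1235 (14.2-fold), while Stra6, the retinol uptake receptor, was 605 and 267 (2.27-fold lower).

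The higher genes of matrix were compared with the same genotypes in the other 2 cell types, 1 array per genotype each, so differences between cell types could not be tested. In ORS 8.16% of 11994 measured genes were higher and 4.75% lower, and in epidermis 6.59% of 11527 were higher and 4.09% lower. Of the 1053 genes higher in matrix, 423 (40.2%) were also higher in ORS, which is 43.2% of the ORS list, and 278 (26.4%) in epidermis, 36.6% of that list. In all 212 were higher in all 3 cell types and 564 in neither of the other 2. Of the 189 genes lower in matrix, 35 (18.5%) were lower in ORS and 26 (13.8%) in epidermis, 19 in both, and 147 in neither.

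The overlap was largest for genes silent in WT skin. Of the higher genes, 110 were below the floor on all 3 WT arrays. Of these, 70 (63.6%) were also higher in ORS and 44 (40.0%) in epidermis, 41 in both. They include Zic1, Cdkn2a, Foxd1, Zdbf2, Hoxd10, Hoxd13, Tbx3, Zic5, Sox2 and Isl1. Zic1 was 31.6 and 3656 in ORS and 47.6 and 2775 in epidermis, beside 24.1 and 2490 in matrix. For the 37 called in neither of the other 2, the brightest were Car3 and Myl1 of the muscle pattern described above. Of the 729 higher genes that were above the floor in WT matrix, 258 (35.4%) were higher in ORS and 165 (22.6%) in epidermis. A gene below the floor on a WT array can be called only higher there, so the shares of these sets differ in part by construction.

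Some genes were called in opposite directions. Of the genes higher in matrix, 56 (5.32%) were lower in ORS and 54 (5.13%) lower in epidermis. These shares lie near those of all genes measured in matrix, of which 4.31% were lower in ORS and 3.47% in epidermis, so the counts say nothing particular of the higher genes. Lower in both were 21, among them Krt73, Krt77, Krt80, Klk7, Defb6, Cst6, Sostdc1 and Tgm2. Klk7, a protease of desquamation, was 321 and 1157 in matrix and 5452 and 444 in ORS. The 4 genes lower in matrix and higher in both others were Car2, Ccdc68, Msx1 and Sptssb, of which Car2 and Ccdc68 fall outside the rule for named genes. Sptssb, a subunit of the enzyme that starts sphingolipid synthesis, was 607 and 128 in matrix, 103 and 281 in ORS, and 55.5 and 983 in epidermis.

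**Figure D5:**
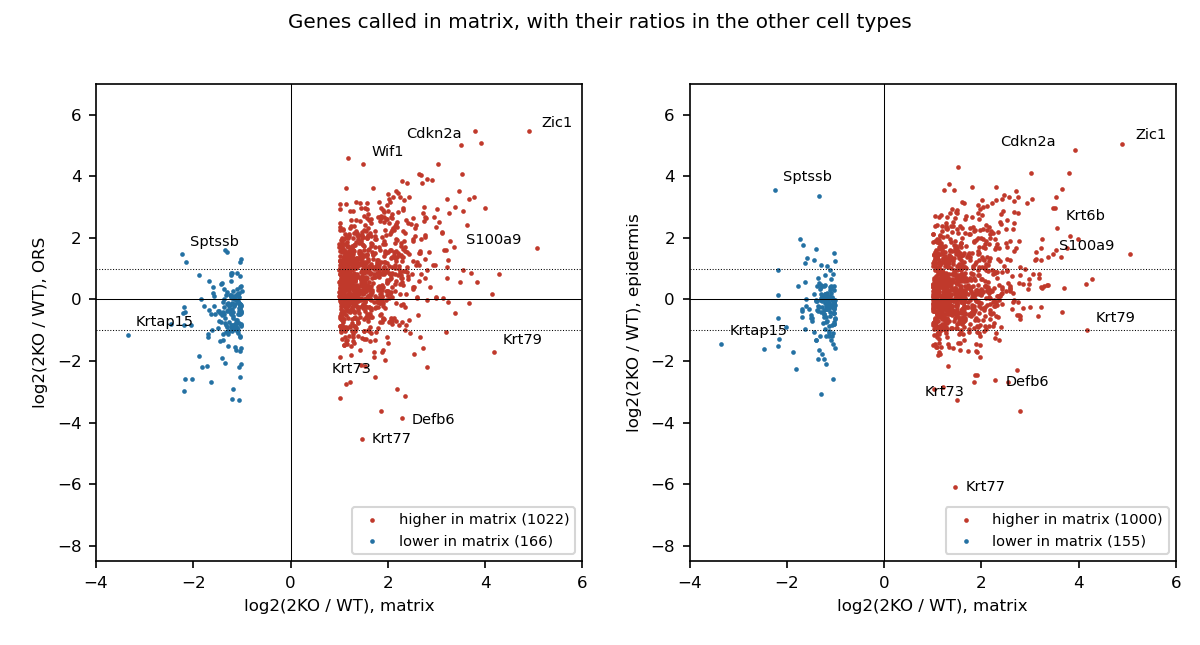
Log2 ratio of 2KO over WT in matrix (x axis) against the ratio of the same gene in ORS (left, y axis) and basal epidermis (right, y axis), for genes called higher (red) or lower (blue) in matrix and measured in the other cell type, 1 array per genotype and cell type. Zic1 and Cdkn2a lie high on both y axes, and Krt79, Krt73, Defb6 and Krt77 lie below 0 on both.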

How the data were processed

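Signal intensities were used as deposited, 1 value per probe set and array on a linear scale, from MAS5, per the submitters' processing notes, with background subtraction of the images, per the series text. No MAS5 version is stated there. Labelling was a biotin in vitro transcription, per the labels' protocols. Of 45101 probe sets, 64 are controls, 34945 name 1 gene, 932 several, and 9211 are not in the platform annotation. The probe set that was brightest on average (mean of log2 signals, all 6 arrays) stood for its gene.

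Signals were floored at 83.2, the median of the non-control probe sets, and 2KO was divided by WT on the log2 scale. Calls used 2-fold, the threshold in the series text. The calls were tested on simulated data of the 18193 genes of this comparison. They found all 200 genes changed by 3- or 6-fold, in the right direction, and 0 of 17993 others. The changed genes were drawn from those well above the floor in WT matrix, so changes in weaker genes were not checked. The simulated noise was assumed, so the test checks the code and gives no error rate. With 1 array per group no statistical test was run, and the number of arrays limits the precision. The members and gene lists were chosen with earlier results of these data known. Genes were named by rule: the 15 largest and 15 smallest ratios, the 10 largest gains and losses in signal, and up to 6 called and 3 brightest members of each list; any others were named after their values were seen. Alternatives changed the scaling, the floor, the choice of probe set and the fold. Promoter sequences are from RefSeq (GRCm38.p6). Python 3.11.15, pandas 2.3.3 and numpy 2.4.6 were used.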

Additional observations from a re-analysis of the deposited data

Results flagged for a closer look

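These genes were called in opposite directions in matrix and in another cell type of the same 2 genotypes, and with 1 array per genotype and cell type the difference was not tested. All values are log2 ratios of 2KO over WT. Among keratins and genes of epidermal differentiation, Krt77 was 1.46 in matrix, -4.54 in ORS and -6.08 in epidermis. Krt73 was 1.87, -1.70 and -2.46 in the same order, and Krt80 was 2.54, -1.78 and -2.67. Krt79 was 4.18 in matrix and -1.71 in ORS, Calm4 was 2.18 and -2.92, and Sprr1a was 1.95 and -1.98.

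Secreted defence proteins, proteases and their inhibitors formed a further set. Defb6 was 2.28 in matrix, -3.85 in ORS and -2.62 in epidermis, Cst6 was 2.36, -3.15 and -1.33, and Klk7 was 1.85, -3.62 and -2.67. Lcn2 was 2.00 in matrix and -1.42 in ORS, and Klk8 was 1.31 and -1.42. The antagonist Sostdc1 was 2.73, -1.58 and -2.30. The transglutaminases Tgm2 and Tgm5, which crosslink proteins, were 1.74, -2.52 and -1.06, and 1.03, -1.05 and -1.16. Lrat, which stores retinol as an ester, was 1.89 in matrix and -1.65 in ORS.

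In epidermis alone, Fosb was 1.09 in matrix against -1.53, Postn was 1.89 against -1.45, and the leukocyte gene Ptprc was 1.55 against -1.42. Lower in matrix and higher elsewhere were Msx1 at -1.02 in matrix, 1.30 in ORS and 1.5 in epidermis, and Sptssb at -2.24, 1.46 and 3.56. Prr5l was -2.15 in matrix and 1.20 in ORS. Foxq1 was -1.18 in matrix and 1.09 in epidermis, and Gpnmb was -1.59 and 1.35. Of 3480 measured probe sets that name no gene or several, which the comparisons leave out, 219 (6.29%) were at least 2-fold higher in 2KO matrix and 75 (2.16%) lower.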

How the results depend on the processing

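No paired analysis was possible because each group has 1 array, and for the same reason there was no replicate to leave out. The number of calls and their split moved most. Scaling to a common median gave 574 lower genes and 55.4% of calls higher, and scaling to the hybridisation controls gave 447 higher and 2297 lower genes, with 16.3% of calls higher. Quantile normalization gave 79.9%. A floor at the 25th percentile gave 2149 higher and 436 lower genes, and one at the 75th gave 311 and 79, with 79.7% higher. The mean over a gene's probe sets gave 75.7%, and a 3-fold threshold gave 416 higher and 34 lower genes, 92.4% higher. In an alternative chosen after seeing the data, 135 higher genes were below the floor in WT ORS and WT epidermis.

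Of 408 list medians recomputed under these alternatives, 42 took the other sign, 12 of them with the common median and 18 with the hybridisation controls. Among medians that were at least 1.5-fold from 0 as reported, 3 did so: basal layer genes to -0.05 with the hybridisation controls, adipocyte markers to 0.07 with a pseudocount of 32 in place of the floor, and Merkel cell markers to -0.05 with the floor at the 75th percentile. Of 2441 ratios of named genes, 2007 moved by less than 1.5-fold. Among genes called at 2-fold, 1 ratio took the other sign, Tgfa to -0.15 over the mean of its probe sets. The cause was not tested. Signals near the floor of 83.2 give bounds only, and no spread between replicates is known.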

Other observations

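Among gene families not described above, 3 of 8 measured kallikreins and 3 of 11 measured S100 genes were higher and 0 lower in either, beside 9.03% higher and 1.62% lower among all genes. Above the floor in WT were 2 kallikreins, 1 of them higher, and 10 S100 genes, 2 of them higher. Of 8 measured peptidylarginine deiminases and transglutaminases, 3 were higher and 3 lower. Of 22 desmosome and junction genes, 1 was higher and 2 lower. The claudin Cldn7, of simple epithelia, was 111 in WT and 447 in 2KO matrix (4.03-fold higher), while the gap junction genes Gjb6 and Gjb5 were 1385 and 666, and 444 and 189. The claudins Cldn10 and Cldn8, outside that list, were lower, Cldn10 at 5086 and 1680 and Cldn8 at 1299 and 321, and both were dimmer than 500 in ORS and epidermis. Of 20 glutathione and NRF2 target genes, 19 were measured, with Srxn1 higher, at 364 and 841, and Slc7a11 lower.

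Prr9, a proline-rich gene of the epidermal differentiation complex, had one of the largest gains in signal, from 1323 in WT to 11403 in 2KO matrix (8.62-fold), beside 490 and 2227 in ORS and 835 and 2031 in epidermis. Ndrg1, a gene induced by low oxygen and differentiation, was 2468 and 11364 in matrix (4.6-fold). Csta1, a cystatin of cornifying cells, was 1814 and 398 in matrix (4.56-fold lower) and 2225 and 4285 in epidermis. Cpt1c, the brain form of a fatty acid transport enzyme, went from 47.4 to 1054 in matrix (at least 12.7-fold), from 164 to 1560 in ORS and from 117 to 1410 in epidermis.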
